A study of Mus musculus with 8 samples.

Results

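The genes described here act in the assembly of lipoproteins by the liver and in the handling of lipoprotein lipids by lipases, transfer proteins and receptors in the blood. The list held 9 genes, Mttp, Tm6sf2, Angptl4, Angptl6, Lipc, Lpl, Lcat, Pltp and Scarb1. A gene was taken as measured where an array transcript cluster (a set of probes read out as 1 gene) carried its symbol alone, and the cluster with the highest mean over all arrays stood for it. By this rule 7 of the 9 genes were measured, among 22180 genes and 23521 clusters with a single symbol. The cluster naming Angptl6, an angiopoietin-like secreted protein, also named another gene, and no cluster was named for Lipc, the hepatic lipase, so neither has a value here.

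Liver RNA was measured in 3 wild-type (WT) male mice and 5 male mice with a knockout (KO) of Abhd15, all on the C57BL/6J background and on normal chow, with 1 Mouse Gene 2.0 ST array per sample. The product of Abhd15 belongs to the alpha/beta hydrolases and has been studied mainly in fat cells. According to the design text the mice were 14 weeks old and were refed for 1 hour after an overnight fast, whereas in the sample labels 14 weeks is the longest time on the diet. How the Abhd15 allele was made, and whether it is lost in all tissues, the sources used here do not give. Since the labels do not list the animals, a p-value speaks only to the spread between these samples.

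Hepatocytes build very-low-density lipoproteins by loading triglyceride onto apolipoprotein B in the endoplasmic reticulum. In the blood, lipoprotein lipase hydrolyses that triglyceride at the vessel wall and is held back by angiopoietin-like proteins, which respond to feeding and fasting. High-density lipoproteins are remodelled by cholesterol esterification and phospholipid transfer, and the liver takes up their cholesterol through the receptor SR-BI.

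The array medians lay between log2 values of 2.99 and 3.05. KO arrays 1 and 2 stood apart from the rest, with scores of 55.2 and 50.8 on principal component 1 (18% of variance), where KO array 3 followed at 0.22. The brighter cluster of Abhd15 read 5.04 to 5.21 in KO, below each WT array (5.46 to 5.81), and its log2 difference was -0.52 (SE 0.13, adjusted p = 0.795 with limma). A dimmer Abhd15 cluster overlapped between the groups, at 2.55 to 3.84 in KO and 3.07 to 4.36 in WT. Of the 9 measured hepatocyte markers, albumin (Alb) was at 12.91 to 13.14 over all arrays, and Ass1, with means of 4.33 in WT and 4.02 in KO, was the dimmest.

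No measured gene of lipoprotein assembly or lipase control passed the test between KO and WT liver. At an adjusted p of 0.05 with limma, 0 of the 7 genes and 0 of all 23521 clusters (0%) passed. At an unadjusted p of 0.05 the count was 0 of 7 with limma, against 6.08% of all clusters, and 0 of 7 by the exact permutation test. Over 16 alternative fits that limma count was 1 of 7, Scarb1, in 6 fits, 3 of 7 in 1 fit and 0 of 7 in 9 fits. The 6.08% of all clusters is not from these alternative fits, whose own shares are not given here. The fit with 3 of 7 was blocked by replicate number, and KO arrays 4 and 5, without a WT partner, do not enter its difference. In 0 of the 7 genes were the KO and WT values fully separated, against 4.43% of all clusters (1.99% with KO higher and 2.44% with KO lower). Of the 7 genes, 3 had a higher and 4 a lower mean in KO, with a median log2 difference of -0.0077, while 11659 of all clusters were higher and 11862 lower, with a median of -0.0018. The receptor gene Scarb1 had the largest difference, 1.26-fold higher in KO, and the triglyceride transfer gene Mttp the next, 1.16-fold lower.

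**Figure D1:**
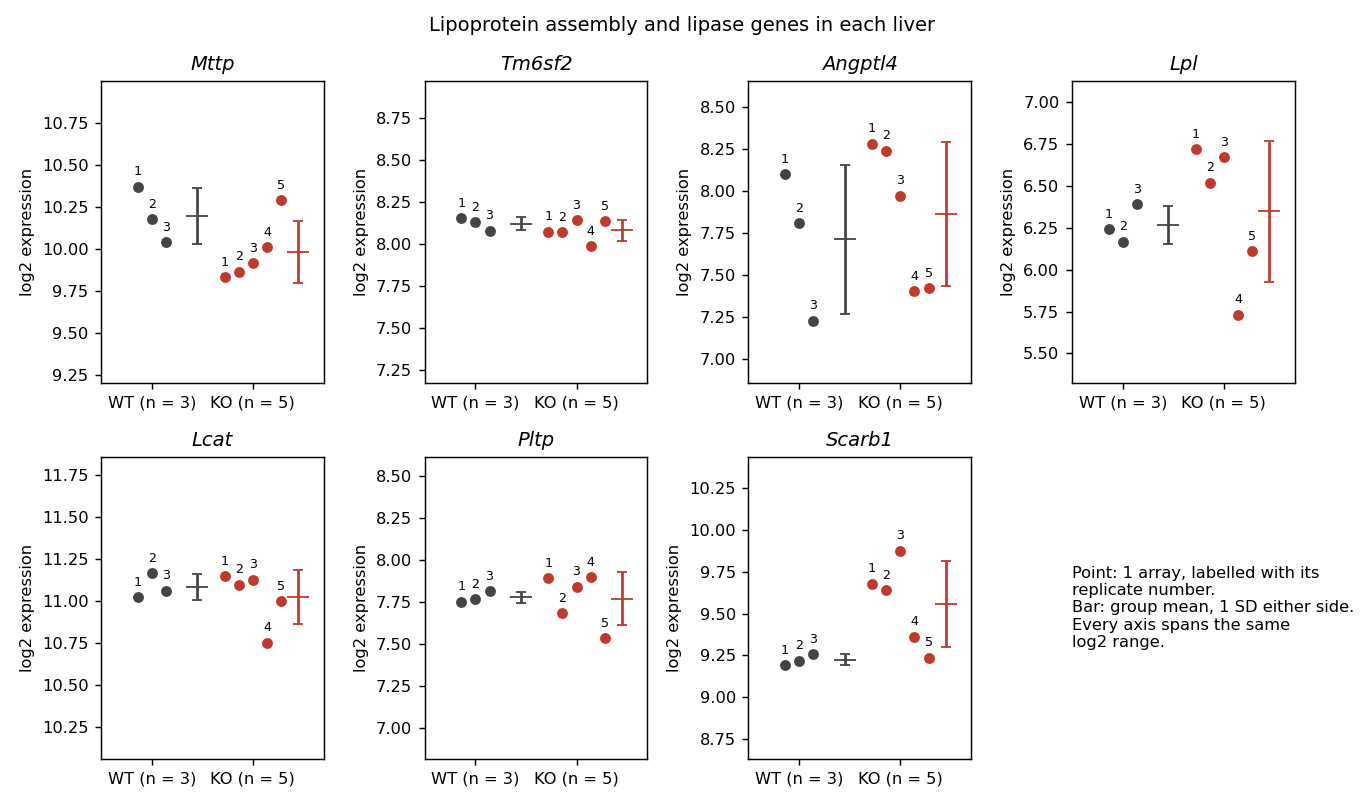
Log2 expression of the 7 measured genes in each liver, with points for single arrays numbered by replicate and bars for the group mean and SD (WT, n = 3; KO, n = 5). The groups overlap in all 7 genes, and KO array 5 is the only KO value inside the WT range for both Mttp and Scarb1.

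Mttp encodes the microsomal triglyceride transfer protein, which loads lipid onto nascent apolipoprotein B particles. It read 10.37, 10.18 and 10.04 in the WT arrays 1 to 3, and 9.83, 9.86, 9.91, 10.01 and 10.29 in the KO arrays 1 to 5, all on the log2 scale. KO arrays 1 to 4 lay below each WT array, and KO array 5 lay between WT arrays 1 and 2. The WT mean was 10.20 ± 0.17 (SD, n = 3) and the KO mean 9.98 ± 0.19 (SD, n = 5). The log2 difference of -0.21 (SE 0.15) gave an adjusted p of 0.874 with limma, and a two-sided exact permutation p of 0.161. Its 95% interval ran from 1.46-fold lower to 1.08-fold higher in KO. Without WT array 1 the log2 difference was -0.13, without KO arrays 1 and 2 it was -0.12, and without KO array 5 it was -0.29.

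Tm6sf2 encodes a membrane protein of the secretory pathway that supports the lipidation of very-low-density lipoproteins. Its log2 values were 8.16, 8.13 and 8.08 in WT and 8.07, 8.07, 8.14, 7.99 and 8.14 in KO. All 8 arrays lay within a range of 0.17, and 99.4% of the 7699 clusters whose mean was 5 or more had a larger SD over the arrays. The log2 difference was -0.04 (SE 0.11, adjusted p = 0.976 with limma, exact permutation p = 0.429). The 95% interval, from 1.23-fold lower to 1.16-fold higher in KO, was the narrowest of the 7 genes.

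Angptl4 encodes a secreted inhibitor of lipoprotein lipase that fasting and PPARA activity are known to induce. It read 8.10, 7.80 and 7.23 in WT and 8.28, 8.24, 7.97, 7.40 and 7.42 in KO on the log2 scale. The highest values were those of KO arrays 1 and 2, but WT array 1 came next and WT array 3 was the lowest of all. Angptl4 had the widest range of the 7 genes, 1.05, and 6.42% of clusters with means of 5 or more had a larger SD. The WT mean was 7.71 ± 0.44 (SD, n = 3) and the KO mean 7.86 ± 0.43 (SD, n = 5). The log2 difference was 0.15 (SE 0.26, adjusted p = 0.953 with limma, exact permutation p = 0.625), with a 95% interval from 1.35-fold lower to 1.67-fold higher in KO. It was -0.09 without WT array 3, 0.35 without WT array 1 and -0.11 without KO arrays 1 and 2.

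The arrays high in Angptl4 were partly those high in genes of fasting and the insulin-restrained factor FOXO1. The mean log2 level over 13 such genes was 8.32 and 8.31 in KO arrays 1 and 2, 7.45 to 7.63 in the other KO arrays and 7.37 to 7.55 in WT. KO arrays 1 and 2 ranked first and second for both. Of the 13 genes, 11 were higher and 2 lower in KO, with a median log2 difference of 0.27, or 0.10 without KO arrays 1 and 2. None passed the adjusted threshold with limma, and 1 was higher and 0 lower at an unadjusted p of 0.05, against 2.75% and 3.32% of all clusters. That gene was Igfbp1, a secreted binding protein of insulin-like growth factors that insulin represses. It had a log2 difference of 2.83 (SE 0.99, adjusted p = 0.795 with limma) and one of 1.35 without KO arrays 1 and 2. Foxo1 itself and Klf15, a transcription factor of fasting metabolism, had log2 differences of 0.27 (SE 0.14) and 0.44 (SE 0.25), and that of Klf15 was 0.15 without KO arrays 1 and 2. The part of this array pattern in the Angptl4 values was not tested.

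Profiles over the 8 arrays were also compared directly, as the root mean square difference of log2 values centred on their own mean, over 7698 clusters whose mean was 5 or more. The gene closest to Angptl4 was Ppargc1a, a transcriptional coactivator of fasting metabolism and a member of the fasting list, at 0.14. It read 7.33, 7.16 and 6.88 in WT and 7.45, 7.48, 7.31, 6.75 and 6.69 in KO, so that WT array 1 and KO arrays 1 to 3 were high in both genes. Foxp1, a forkhead transcription factor, and C9orf72 followed, at 0.16 and 0.17. These 3 genes had log2 differences of 0.01, 0.19 and 0.22 between KO and WT, none past the adjusted threshold.

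Angptl4 is also a known target of the fatty acid receptor PPARA, and most of the other targets listed here had lower means in KO. Of 14 measured targets, 3 were higher and 11 lower in KO, with a median log2 difference of -0.31, and -0.34 without KO arrays 1 and 2. None passed the adjusted threshold with limma. At an unadjusted p of 0.05, 8 were lower and 0 higher, against 3.32% of all clusters lower and 2.75% higher, and in 6 of the 14 the groups did not overlap, all with KO lower, against 2.44% of all clusters. The pantetheinase gene Vnn1, the peroxisomal thiolase gene Acaa1b and the fatty acid binding protein gene Fabp1 had log2 differences of -0.83 (SE 0.19), -0.79 (SE 0.19) and -0.63 (SE 0.16). The 3 targets higher in KO, named after their values were seen, were Creb3l3 (0.23, SE 0.19), Pdk4 (0.19, SE 0.40) and Cpt1a (0.04, SE 0.13). The mean level of the list was 9.46 to 9.94 in WT and 9.20 to 9.63 in KO. KO arrays 1 and 2, the highest for Angptl4, were among the 3 lowest arrays for this list. The WT arrays had the same order in both, highest in WT array 1 and lowest in WT array 3. The difference between Angptl4 and this list was not tested.

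Lpl encodes lipoprotein lipase, which hydrolyses plasma triglyceride and which in adult liver is known mainly from cells other than hepatocytes, macrophages among them. Its brighter cluster read 6.24, 6.17 and 6.39 in WT and 6.72, 6.52, 6.67, 5.73 and 6.11 in KO on the log2 scale. KO arrays 1, 2 and 3 lay above each WT array and KO arrays 4 and 5 below each, so that the KO values fell on both sides of WT. The SD was 0.11 (n = 3) in WT and 0.42 (n = 5) in KO, around means of 6.27 and 6.35. The log2 difference was 0.08 (SE 0.22, adjusted p = 0.974 with limma, exact permutation p = 0.786), with a 95% interval from 1.33-fold lower to 1.49-fold higher in KO. It was -0.01 without KO array 1, -0.10 without KO arrays 1 and 2, and 0.24 without KO array 4.

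A dimmer cluster for Lpl, with a mean of 3.54, pointed the other way. It read 3.82, 3.67 and 3.67 in WT and 3.76, 3.26, 3.40, 3.45 and 3.24 in KO. Its log2 difference was -0.30 (SE 0.15, adjusted p = 0.838 with limma, exact permutation p = 0.0893). Its values lay little above the array medians, and a signal above background is not shown for it. The direction of Lpl therefore depended on the cluster used, and the mean of both clusters had a log2 difference of -0.11.

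The mean of 10 macrophage markers varied over the arrays much as the brighter Lpl cluster did. This mean log2 level was 6.18, 5.89 and 6.30 in WT and 6.59, 6.36, 6.76, 5.68 and 6.06 in KO. The 3 arrays highest in Lpl (KO 1, KO 3 and KO 2) were also the 3 highest in this mean, and KO array 4 was lowest in both. The same held for the mean of the hepatocyte markers, at 10.85, 10.86 and 10.90 in KO arrays 1 to 3 and 10.62 in KO array 4, over a narrower range. That mean includes the dim Ass1, at 4.697 in KO array 2 and 3.58 in KO array 5. The place of KO array 2 above KO array 5 in it depends on this cluster. The mean of the sinusoidal endothelial markers was lowest in KO array 4 too, at 7.32 in a range up to 7.51. Its single genes, named after their values were seen, were mixed. Stab1, Clec4g and Cdh5 were lowest in KO array 4, while Stab2 (7.02) and Pecam1 (6.54) were highest there. Of the 10 macrophage markers 6 were higher and 4 lower in KO, with a median log2 difference of 0.15. None passed with limma at an adjusted or an unadjusted p of 0.05, against 0% and 6.08% of all clusters. Marco, a macrophage scavenger receptor, read 4.77, 3.92 and 4.53 in WT and 6.01, 5.36, 5.69, 3.43 and 5.03 in KO, a log2 difference of 0.70 (SE 0.49). Cd5l, secreted by macrophages, and Cd68, a lysosomal protein of macrophages, had log2 differences of 0.45 (SE 0.32) and 0.25 (SE 0.21). The 4 markers lower in KO were Vsig4, Timd4, Cd163 and C1qa. Single markers could depart from the mean: Cd163 was lowest in KO array 2 (5.515) and C1qa highest in WT array 3 (7.171). These were named after their values were seen. In bulk tissue more cells of a type and more RNA per cell cannot be told apart, and the part of macrophages in the Lpl values was not tested.

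**Figure D2:**
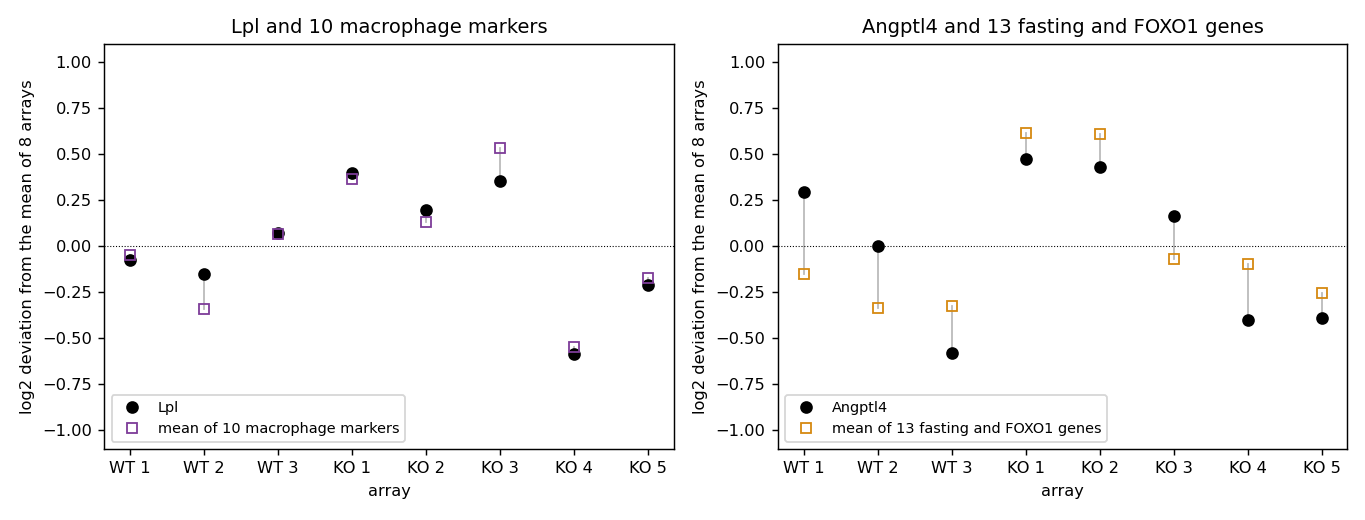
Log2 deviation from the mean of the 8 arrays for Lpl beside 10 macrophage markers (left) and for Angptl4 beside 13 genes of fasting and FOXO1 (right), with filled circles for the gene and open squares for the list mean in each array. KO arrays 1 to 3 are above and KO arrays 4 and 5 below 0 in both Lpl and the macrophage markers, while WT array 1 is high in Angptl4 and not in the fasting list.

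Fat and muscle also express Lpl, and markers of both were read beside it. Markers of adipocytes had mean log2 levels of 4.00 to 4.77 in the WT arrays and 3.97 to 4.69 in the KO arrays, with 2 of 6 higher in KO. The fat hormone genes Adipoq and Lep had means of 2.66 and 2.16, below the array medians, while Fabp4 and Cidec, which liver can also express, had means of 6.02 and 8.27. The log2 differences were 0.73 (SE 0.35) for Fabp4 and -0.41 (SE 0.64) for Cidec. Fabp4 read 6.01, 6.225 and 4.462 in WT and 5.998 to 6.64 in KO, so that only WT array 3 was low. Markers of skeletal muscle lay at 3.19 to 3.35 in WT and 3.01 to 3.41 in KO, with 3 of 6 higher in KO. Among them Ckm had a log2 difference of -0.54 (SE 0.18, adjusted p = 0.795 with limma). Its KO arrays lay below each WT array, as in 2.44% of all clusters, and its mean of 3.36 was little above the array medians.

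Lcat encodes lecithin-cholesterol acyltransferase, which esterifies cholesterol on high-density lipoproteins. It read 11.02, 11.17 and 11.06 in WT and 11.15, 11.10, 11.13, 10.75 and 11.00 in KO on the log2 scale. KO array 4 was the lowest, and KO arrays 1 to 3 lay within the WT range. The log2 difference was -0.06 (SE 0.13, adjusted p = 0.963 with limma, exact permutation p = 0.696), and 0.01 without KO array 4. The 95% interval ran from 1.28-fold lower to 1.18-fold higher in KO.

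Pltp encodes the phospholipid transfer protein, which moves phospholipid between lipoproteins. It read 7.75, 7.76 and 7.81 in WT and 7.89, 7.68, 7.84, 7.90 and 7.53 in KO. The KO values lay on both sides of the narrow WT range, with SDs of 0.032 (n = 3) in WT and 0.16 (n = 5) in KO. The means differed by -0.01 (SE 0.13, adjusted p = 0.996 with limma, exact permutation p = 0.964), the smallest difference of the 7 genes, and its sign turned in several omissions of an array. The 95% interval ran from 1.23-fold lower to 1.22-fold higher in KO.

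Scarb1 encodes SR-BI, the receptor through which hepatocytes take up cholesterol from high-density lipoproteins. Its log2 values were 9.19, 9.22 and 9.26 in WT and 9.68, 9.64, 9.88, 9.36 and 9.24 in KO. KO arrays 1 to 4 lay above each WT array, and KO array 5 lay between WT arrays 2 and 3. The WT mean was 9.22 ± 0.033 (SD, n = 3) and the KO mean 9.56 ± 0.26 (SD, n = 5). The log2 difference of 0.33 (SE 0.16) had the smallest p of the 7 genes, 0.838 after adjustment with limma and 0.0536 in the two-sided exact permutation test, where the 56 splits of the arrays allow 0.0179 at the lowest. The 95% interval ran from 1.01-fold lower to 1.61-fold higher in KO. The difference stayed between 0.26 and 0.41 when each array was left out, and was 0.27 without KO arrays 1 and 2.

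**Figure D3:**
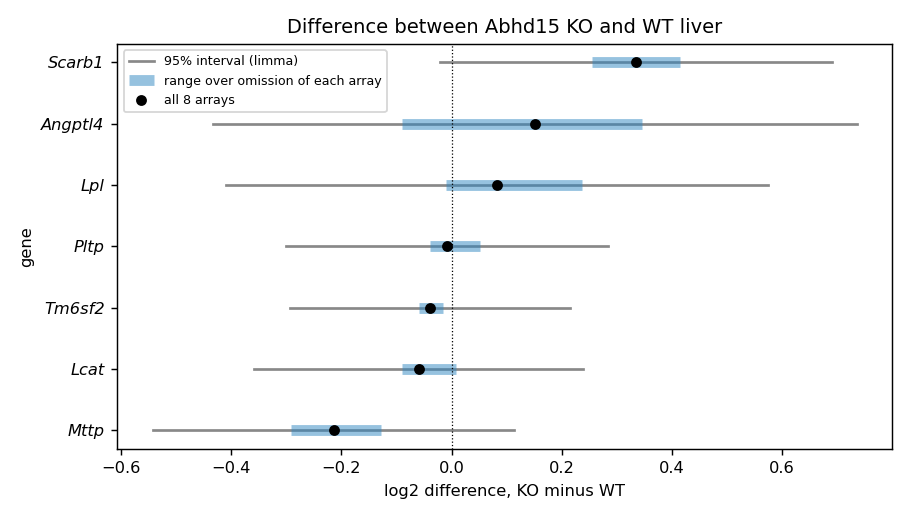
Log2 difference, KO minus WT, for the 7 measured genes, with points for the fit over 8 arrays, thin lines for 95% intervals and thick bars for the range when each array was left out in turn. Every 95% interval includes 0, and the thick bars of Scarb1, Mttp and Tm6sf2 do not cross it.

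The SD was larger in KO than in WT in 6 of the 7 genes, and in 69.6% of the 7699 clusters whose mean was 5 or more. These shares were not compared by a test. KO arrays 1 to 3 were above KO arrays 4 and 5 in Angptl4, Lpl, Lcat and Scarb1. In KO array 3, 6 of the 7 genes lay above the WT mean, and in KO array 4, 2 of the 7 did.

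Other genes of lipoprotein assembly, secretion and plasma handling were described in the same way. The list covers the assembly partner P4hb, coat and cargo proteins of secretion, lipase maturation factors, the lipase anchor Gpihbp1, receptors and enzymes that supply lipid. Of 27 measured genes, 12 were higher and 15 lower in KO, with a median log2 difference of -0.03, and 0.02 without KO arrays 1 and 2. None passed with limma at an adjusted p of 0.05 and none at an unadjusted p of 0.05, against 0% and 6.08% of all clusters. None had groups that did not overlap, against 4.43% of all clusters. The smallest p-values belonged to Dgat2, which makes triglyceride, with a log2 difference of 0.21 (SE 0.12), the carboxylesterase gene Ces1d with -0.21 (SE 0.15) and the acyltransferase gene Lpgat1 with -0.16 (SE 0.13).

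Targets of the sterol sensor LXR, a receptor known to induce Lpl and Pltp, had a median difference near 0. Of 10 measured, 7 were higher and 3 lower in KO, with a median log2 difference of 0.03. With limma none passed at an adjusted or an unadjusted p of 0.05, against 0% and 6.08% of all clusters. Nr1h3, which encodes LXR alpha, had a log2 difference of -0.15 (SE 0.13), the lipogenic factor gene Srebf1 one of -0.27 (SE 0.29), and the sterol exporter gene Abcg8 one of 0.11 (SE 0.14).

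**Figure D4:**
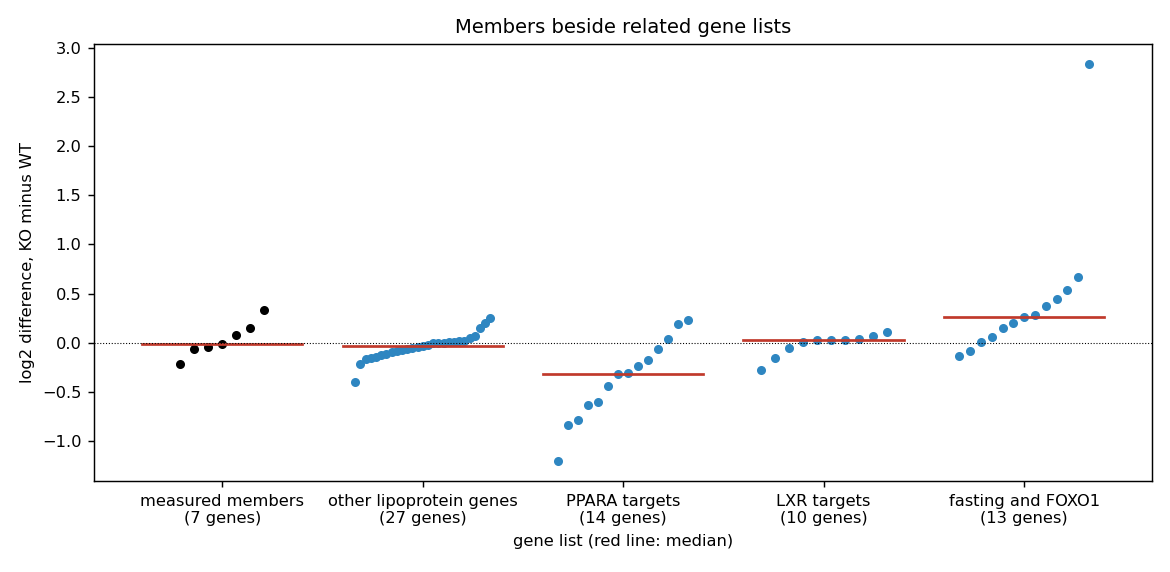
Log2 difference, KO minus WT, of single genes (points) in the 7 measured members and in 4 related lists, with red lines for the medians. The members and the other lipoprotein genes have medians of -0.01 and -0.03, and the PPARA targets and fasting genes lie at -0.31 and 0.27.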

How the data were processed

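The submitters' processing notes name RMA and the oligo package, and the design text names Expression Console. The sources used here give no versions, settings or genome build. The authors deposited log2 values for 41345 transcript clusters in 8 arrays. The log2 scale was inferred from their range of 0.41 to 13.27. RMA as commonly run compresses differences of dim clusters. Clusters were named from the platform annotation: 23521 have 1 symbol, 1814 several and 16010 none.

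KO minus WT was fitted with limma 3.58.1 in R 4.3.3 (lmFit, eBayes, no trend, no covariates) over all single-symbol clusters, two-sided, with Benjamini-Hochberg adjustment and a threshold of 0.05. The number of arrays limits the precision. The 95% intervals are limma's and are not adjusted for the number of genes. Single values were also compared by exact permutation over 56 splits. The code was tested on simulated data.

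The genes, lists and tests were chosen with earlier results of these data known, and lists are described by counts and medians without a test. From each related list and from the macrophage list, the 3 genes with the smallest p are named. Other marker genes are named for their level, their array pattern or their difference. Related profiles are named for the member with the largest SD. Genes named after their values were seen are marked as such where they are not markers. Batches could not be examined, since neither labels nor values name a slide, a scan or a harvest.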

Additional observations from a re-analysis of the deposited data

How the results depend on the processing

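The count of members called was 0 under all 16 alternatives fitted to every member, including the omission of each array. Of 114 alternative values of single genes, 101 kept their direction, and no adjusted p fell below 0.589. Mttp, Tm6sf2 and Scarb1 kept their direction throughout, from -0.33 to -0.12, -0.06 to -0.02 and 0.26 to 0.51. The sign of Angptl4 turned without WT array 3 (its omissions ranged from -0.090 to 0.35) and without KO arrays 1 and 2 together (-0.11). That of Lpl turned without KO array 1 (omissions from -0.0094 to 0.24), without KO arrays 1 and 2 (-0.10), with the mean of its clusters (-0.11) and with its other cluster (-0.30). That of Lcat turned without KO array 4 (omissions from -0.090 to 0.0084), and that of Pltp in 3 omissions (-0.040 to 0.051) and with quantile normalization (0.019). The labels do not state that a shared replicate number marks a shared litter or day, so replicate numbers were not taken as pairs. Deviations from the group mean had correlations across clusters of -0.048, 0.016 and 0.021 for same-numbered WT and KO arrays. Those of other pairs ran from -0.053 to 0.053. These correlations do not settle the pairing, since the deviations within a group cancel. The replicate block gave differences of 0.039 for Lcat, 0.028 for Pltp, -0.33 for Mttp, 0.51 for Scarb1 (from 0.33), 0.45 for Angptl4 (from 0.15) and 0.37 for Lpl (from 0.08), with 0 members called. Replicate numbers 4 and 5 occur only in KO, so with the block these 2 arrays do not enter the difference. It then compares arrays 1 to 3 of each group. At an unadjusted p of 0.05, limma's count of members was 3 with the block (Scarb1, Angptl4 and Lpl). It was 1, Scarb1, without KO array 4, without KO array 5, among clusters with a mean of at least 5, with eBayes fitted with a trend and robustly, with quantile normalization and with array weights, and 0 in the other 9 alternatives. The share of all clusters at that p in each alternative is not given here, so these counts have no background. Apart from the arrays that the block leaves out of the difference, the causes were not tested.

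Over all single-symbol clusters the count of calls rose from 0 to 1 with the replicate block (Moxd1), to 1 among clusters with a mean of at least 5 (Hspa1a), and to 3 with eBayes fitted with a trend and robustly (Hspa1a, Hspa1b and 1700080G11Rik). These genes were named after their values were seen.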

Other observations

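Angptl8, named after its values were seen, encodes a feeding-induced liver protein that takes part in holding back lipoprotein lipase. It read 10.03, 10.65 and 10.51 in WT and 8.50, 9.37, 10.70, 10.72 and 10.72 in KO on the log2 scale. KO arrays 1 and 2 lay below each WT array and KO arrays 3 to 5 above each, whereas for Angptl4 KO arrays 1 and 2 were the highest of all. The log2 difference of Angptl8 between the groups was -0.40 (SE 0.48, adjusted p = 0.925 with limma), and 0.31 without KO arrays 1 and 2.

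Gpihbp1, which anchors lipoprotein lipase to the vessel wall and was also named after its values were seen, read 5.83, 5.83 and 5.81 in WT and 5.89, 6.08, 5.44, 5.07 and 5.89 in KO. The KO values lay on both sides of a narrow WT range, and KO array 4, lowest for Lpl, was lowest here too. Its log2 difference was -0.15 (SE 0.22, adjusted p = 0.943 with limma).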
